A study of Mus musculus with 14 samples.

Results

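The arrays described here were the 4 taken from confluent 3T3-L1 cells after 12 h in a fat-forming hormone mixture (12 h) and just before it was added (0 h), out of 14 arrays at 7 hours of differentiation. They were chosen by the hour in their labels, with 2 arrays at 12 h and 2 at 0 h, and the 2 arrays of an hour came from cells with the SETD5 virus and cells with the empty virus. The array held probe sets of single genes for 18193 mouse genes, and the 8682 of them that reached an intensity of 50 on 3 or more arrays of the series were compared. 3T3-L1 is a mouse fibroblast line whose cells, called preadipocytes, turn into fat cells. All cells were grown in medium with 10% fetal bovine serum and left for 2 days after they had become confluent. The mixture, called MDI, held insulin at 1 µg/ml, dexamethasone (DEX) at 0.25 µM and isobutylmethylxanthine (IBMX) at 0.5 mM, and cells at 12 h were still in it, since it was given for 48 h. Cells at 0 h had no mixture. Both lines, at both hours, carried a retrovirus: a weak LTR promoter drove V5-tagged SETD5 in one and nothing in the other. The study made stable lines with a high and a moderate level of SETD5 and states that it used the moderate one unless it says otherwise, and the labels of the arrays do not name the line. None of the 14 arrays held cells kept for 12 h without the mixture, so its effect cannot be told apart from that of fresh medium or of 12 h more in culture.

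Dexamethasone is a synthetic glucocorticoid that binds the glucocorticoid receptor, a transcription factor that enters the nucleus when it holds its ligand. IBMX blocks phosphodiesterases, the enzymes that break down cyclic AMP, so that protein kinase A and the transcription factor CREB stay active. Insulin at this dose also acts through the receptor for insulin-like growth factor 1. Confluent 3T3-L1 cells rest outside the cell cycle, re-enter it together after MDI, and make the early factors C/EBPβ and C/EBPδ well before PPARγ, C/EBPα and the proteins of the fat cell.

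Levels are array intensities with no unit, and pairs of them give first the array with the SETD5 virus and then the array with the empty virus. A difference is log2 of the intensity plus an offset of 16 at 12 h minus the same at 0 h, averaged over the 2 lines, and a fold is 2 to the power of that difference. The offset makes folds of dim genes smaller than the raw ratio. Errors are standard errors (SE) from a linear model of all 14 arrays, with n = 2 arrays at 12 h and 2 at 0 h. Listed genes that were not tested had no probe set of their own or stayed under the filter. A gene is said to have risen or fallen only where limma's Benjamini-Hochberg adjusted p over the 8682 genes was under 0.05. The 2 arrays of an hour were from different lines, with 1 array for each line and hour. Errors and p-values therefore rest on the spread between the lines over all 7 hours, not on repeats at 12 and 0 h. A gene on which the lines parted at later hours has wider errors.

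The arrays carried 11 of 15 fibroblast markers and lacked nearly all of those of other cells. At 12 h, Vim had 4729.5 and 5259 and Col1a2 had 5527 and 5902.5, against 6775 and 6354 for Vim and 5834 and 5473 for Col1a2 at 0 h. Fap, Cd34, Eng and Nt5e were under 50 on these 4 arrays. So were 14 of 15 macrophage markers (all but Laptm5), 12 of 12 endothelial, 11 of 11 epithelial and 10 of 10 skeletal muscle markers, and 9 of 10 markers of mature fat cells (all but Plin4). Setd5 had 239 and 249 at 12 h, against 339.8 and 377.5 at 0 h, a fall of 0.52 ± 0.12 on the log2 scale (adjusted p = 0.00456). It was no higher in the line with the SETD5 virus at either hour. The place of its probes in the transcript is not known here, so these values do not check that label. The share of the 8682 genes at 50 or more was 89.3% and 88.4% at 12 h, against 93.8% and 93.8% at 0 h, on arrays that the authors had scaled to the same trimmed mean. The part of this shift in the counts below was not tested.

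A large share of the compared genes differed between the hours. After 12 h of MDI 1726 genes had risen (19.9% of those tested) and 2422 had fallen (27.9%), and 4534 were not called. Counts on the lists below are to be read beside these shares, and a list near them differs little from all tested genes. The median difference over all tested genes was -0.06. In RNA from whole cultures, fewer cells that express a gene and less of its RNA in each cell cannot be told apart. Of the called genes, 432 rose and 758 fell by more than 2-fold, 43 rose and 120 fell by more than 4-fold, and 12 rose and 17 fell by more than 8-fold. Each of the 4148 called genes had the same sign in both lines. The call nearly fixes this, since it needs a mean difference that is large beside the spread between the lines. It is therefore no separate sign of agreement. The 12 h values lay wholly above or wholly below the 0 h values for 4145 of the called genes, but also for 6936 of all 8682 genes, since 2 arrays against 2 are easily separated. The differences of the 2 lines had a Pearson correlation of 0.94 over the 8682 genes, which share 2 arrays per line and are not independent, and the median gap between the lines was 0.16. How many genes rose against fell depended on the scaling. The called genes were 41.6% higher ones as deposited, and 53.3% when every array was set to a common median (2254 higher and 1972 lower), which moved the median difference of all genes to 0.05.

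**Figure D1:**
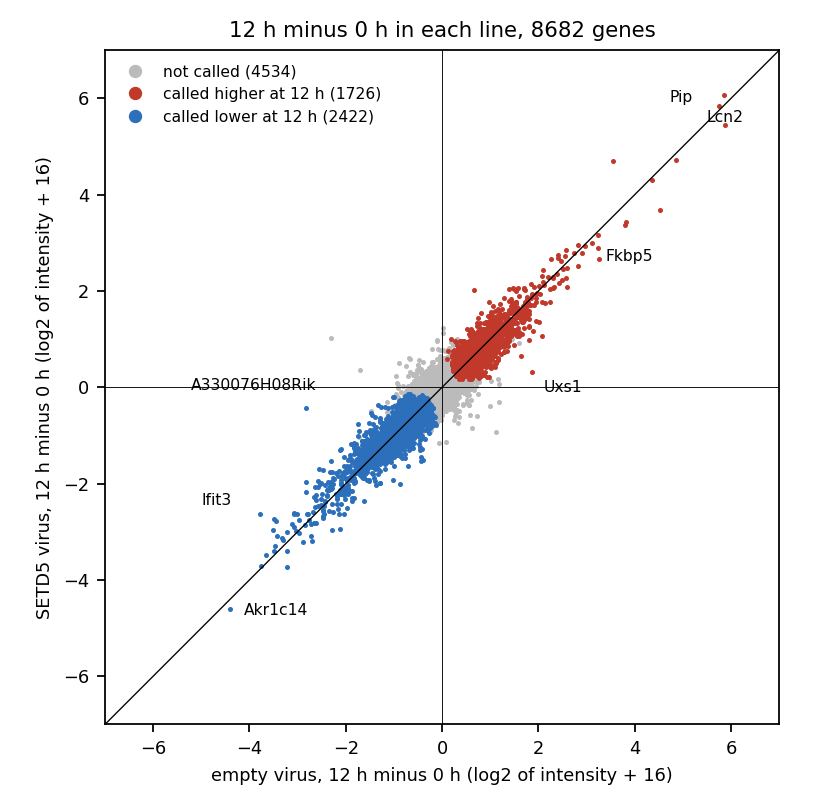
Difference between 12 h and 0 h (log2 of intensity plus 16) in the SETD5 virus line (y axis) against that in the empty virus line (x axis), 1 point per gene and 8682 genes, with called genes in red (1726 higher) and blue (2422 lower) and the line of equality in black. Points lie along the line of equality, and Uxs1 and A330076H08Rik stand away from it.

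The largest rises included secreted proteins and a receptor partner that were near 0 before MDI. Lcn2, the iron-carrier-binding protein lipocalin 2, had 1148.5 and 1127 at 12 h, against 1.3 and 3.8 at 0 h (difference 5.96 ± 0.30, adjusted p = 2.01e-06). Pip, prolactin-induced protein, had 908 and 847 at 12 h, against 0.2 and 0.2 at 0 h (5.78 ± 0.17). Ear3, a ribonuclease of the eosinophil family, had 733 and 1064 at 12 h, against 1.1 and 2.3 at 0 h (5.67 ± 0.18). All 3 were thus dark on both 0 h arrays and bright on both 12 h arrays, and the size of their differences depends on the offset. With an offset of 4 they were 7.47 for Lcn2, 7.71 for Pip and 7.29 for Ear3, and with an offset of 64 they were 4.17, 3.87 and 3.85. Prg4, the joint lubricant lubricin, had 562 and 510.2 at 12 h, against 6.1 and 2.3 at 0 h. Ramp3, which turns the calcitonin-receptor-like receptor into a receptor for adrenomedullin, had 413.5 and 397 at 12 h, against 5.6 and 4.2 at 0 h. Krt15, a keratin of basal epithelium, had 423 and 955 at 12 h, against 18.2 and 26.0 at 0 h, so the line with the empty virus had the higher level. The epithelial markers Epcam, Krt5, Krt14 and Cdh1 were at most 45.8 on these arrays. Vdr, the vitamin D receptor, had 954 and 992 at 12 h, against 74.1 and 55.7 at 0 h (3.62 ± 0.21, 12.3-fold). Ctla2a, an inhibitor of cysteine proteases, rose 12.0-fold.

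The largest falls included a steroid enzyme, the iron exporter, a thrombospondin and several chemokine or interferon genes. Akr1c14, a hydroxysteroid dehydrogenase, had 7.7 and 6.7 at 12 h, against 560.1 and 464 at 0 h (difference -4.50 ± 0.34, adjusted p = 1.2e-05). Slc40a1, the iron exporter ferroportin, had 8.4 and 13.4 at 12 h, against 303.5 and 381 at 0 h (-3.73 ± 0.28). Both genes were under 50 on both 12 h arrays. Lrrc17, a secreted protein with leucine-rich repeats, fell 11.2-fold, with 16.7 and 28.0 at 12 h, against 420.2 and 397.5 at 0 h. Cdc42ep3, an effector of the small GTPase Cdc42, had 131 and 105 at 12 h, against 1317 and 1189.8 at 0 h (-3.25 ± 0.18), and so was well measured at both hours. Sycp2, a protein of the meiotic chromosome axis, and Trim30d, of a family of interferon-induced proteins, fell, with differences of -3.23 ± 0.19 and -3.25 ± 0.26. The other 6 of the 12 largest falls (Thbs2, Egr1, Xaf1, Gbp2, Ccl2 and Ifit3) belong to the groups described below.

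**Figure D2:**
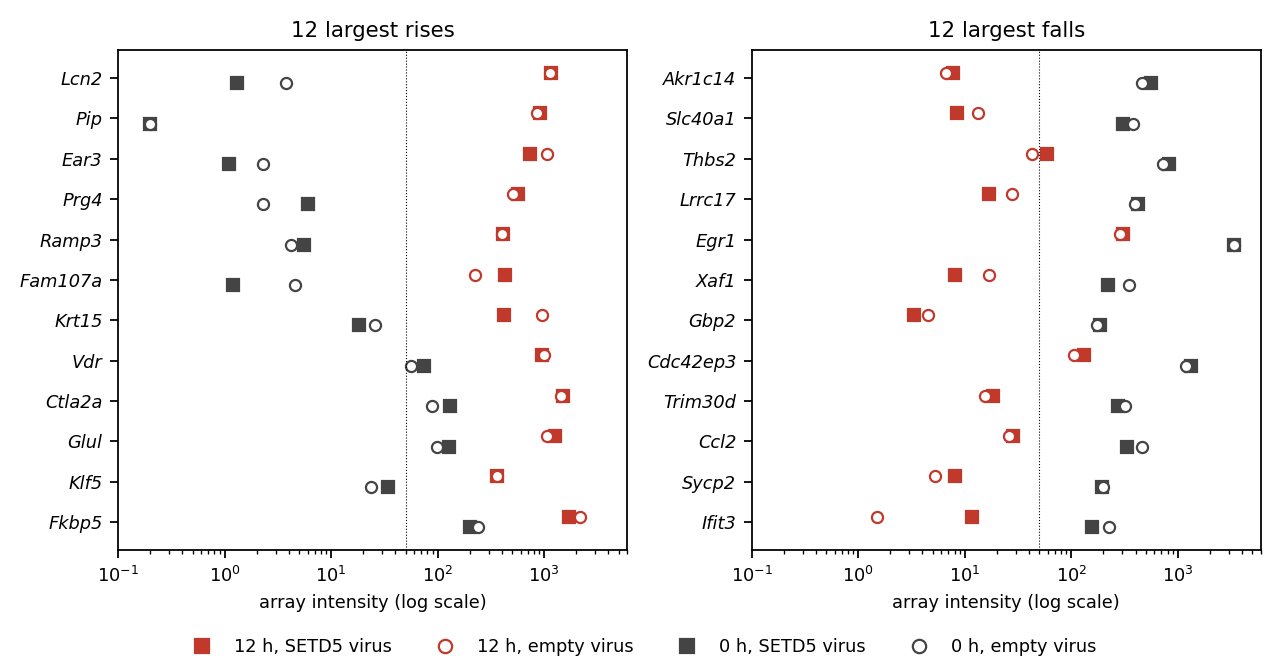
Array intensity (x axis, log scale) of the 12 called genes with the largest rise (left) and fall (right), 1 gene per row, at 12 h in red and at 0 h in dark grey, with the SETD5 virus as squares and the empty virus as open circles and the filter of 50 dotted. Hours are separated in every row, and Pip lies at 0.2 on both 0 h arrays.

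Genes listed as targets of the glucocorticoid receptor more often rose than fell, and the gene of the receptor itself fell. Of 36 listed, among them the receptor gene Nr3c1 and the steroid enzyme gene Hsd11b1, 30 were tested. In all, 13 rose, 7 fell and 10 were not called, with a median difference of 0.18. These counts stand beside 19.9% higher and 27.9% lower over all tested genes. Fkbp5, a cochaperone that lowers the receptor's affinity for its hormone, had 1699 and 2176 at 12 h, against 199 and 237 at 0 h (3.05 ± 0.21, 8.30-fold, adjusted p = 6.78e-06). Tsc22d3, the anti-inflammatory leucine zipper protein GILZ, had 1653 and 1540.1 at 12 h, against 327 and 297 at 0 h (2.30 ± 0.14, adjusted p = 2.99e-06). Glul, glutamine synthetase, had 1269.9 and 1051 at 12 h, against 128 and 97.7 at 0 h (3.20 ± 0.36). These 3 rose about alike in both lines. Fam107a, an actin-binding stress protein, had 426.5 and 225.5 at 12 h, against 1.2 and 4.6 at 0 h, and was higher with the SETD5 virus at 12 h. Per1, a clock repressor, had 152.5 and 149.5 at 12 h, against 42.5 and 48.4 at 0 h (1.44 ± 0.14). Klf9, a zinc finger factor, had 1426 and 1779 at 12 h, against 1504 and 1581 at 0 h, and its groups overlapped (0.05 ± 0.11, adjusted p = 0.763). Nr3c1, the receptor itself, fell to 258 and 268 at 12 h, against 625 and 615 at 0 h (-1.19 ± 0.15, adjusted p = 0.000154). Klf9 and Nr3c1 were well above the filter on all 4 arrays, so neither value rests on dim spots.

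Genes of the cyclic AMP response also more often rose than fell, with several phosphodiesterases among those that rose. Of 47 listed genes 32 were tested, and 12 rose and 8 fell (median 0.31), beside 19.9% and 27.9% of all tested genes. Pde4b and Pde4d, which break down cyclic AMP, rose by 1.56 ± 0.14 and 1.52 ± 0.13. Pde4b had 150.0 and 181 at 12 h, against 38.7 and 53.1 at 0 h, and Pde4d had 343 and 385 at 12 h, against 120.5 and 112 at 0 h. Pde3b, the form that insulin activates in fat cells, and Pde10a, which like Pde3b was picked from the list after its value was seen, rose by 1.12 ± 0.25 and 1.76 ± 0.27. Rgs2, which shortens signalling by G proteins, had 1863 and 1949.5 at 12 h, against 499.7 and 561 at 0 h (1.82 ± 0.32). Nfil3, a repressor of the basic leucine zipper class, had 339 and 309 at 12 h, against 56.5 and 54.9 at 0 h (2.25 ± 0.25). The orphan nuclear receptor Nr4a1 had 602 and 544 at 12 h, against 224 and 280.4 at 0 h (1.14 ± 0.20, adjusted p = 0.00123). Crem, a CREB family member with a cyclic AMP-induced repressor form, had 49.6 and 52.7 at 12 h, against 35.0 and 32.5 at 0 h, and was not called (0.43 ± 0.21, adjusted p = 0.114), but was after quantile normalization (0.58, adjusted p = 0.0447). Akap12, a scaffold for protein kinase A, fell to 84.5 and 79.7 at 12 h, against 644.5 and 517 at 0 h (-2.60 ± 0.13). Btg2, which slows the cell cycle, fell to 49.2 and 46.4, against 245.5 and 249 at 0 h.

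In the insulin and IGF pathway the main docking proteins of the insulin receptor went opposite ways. Irs1 had 190.2 and 149 at 12 h, against 798 and 683 at 0 h (difference -2.03 ± 0.14, adjusted p = 7.96e-06). Irs2 had 135 and 142 at 12 h, against 59.1 and 74.0 at 0 h (0.91 ± 0.16, adjusted p = 0.00118). The groups did not overlap for either gene. Insr, the receptor, fell by 0.64 ± 0.17 (adjusted p = 0.0114), a call lost without either 12 h array or without the 0 h array of the SETD5 line (adjusted p = 0.0559 to 0.07). Igf1, the ligand, fell to 84.8 and 87.5 at 12 h, against 609.9 and 410.4 at 0 h, and Trib3, an inhibitor of the kinase AKT, to 38.5 and 85.7, against 406 and 426 at 0 h. Igfbp4, which binds the growth factor, rose by 1.12 ± 0.12. Over the list, 28 of 35 genes were tested, and 4 rose and 9 fell (median -0.03), beside 19.9% and 27.9% of all tested genes.

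The early factors Cebpb, Cebpd and Klf5 rose, Pparg and Cebpa were not called, and other factors that favour fat cell formation fell. Cebpb had 3229 and 3329 at 12 h, against 1260.4 and 1419.6 at 0 h (1.28 ± 0.14, adjusted p = 8.87e-05). Cebpd had 654.5 and 460.3 at 12 h, against 243 and 213 at 0 h (1.21 ± 0.15, adjusted p = 0.000157). Both were far above background already at 0 h. Pparg had 84.8 and 113 at 12 h, against 89.7 and 95.7 at 0 h (0.07 ± 0.46, adjusted p = 0.917), and its groups overlapped. Cebpa had 19.3 and 1.1 at 12 h, against 18.1 and 16.2 at 0 h, all under the filter of 50. Klf5, an early activator of Pparg, had 361 and 357.5 at 12 h, against 34.4 and 23.6 at 0 h (3.07 ± 0.17, 8.40-fold, adjusted p = 2.42e-06). Egr2, a zinc finger factor that favours fat cell formation, fell to 22.3 and 19.3 at 12 h, against 272 and 281 at 0 h (-2.99 ± 0.17). Klf6 and Zfp467, which act in the same direction, fell, with differences of -2.25 ± 0.20 and -1.65 ± 0.21. Of the 27 tested factors (31 listed), 9 rose and 6 fell, with a median of -0.01. The list also holds repressors of fat cell formation, such as Nr2f2 (COUP-TFII), so these counts do not separate activators from repressors.

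Factors listed as restraints on fat cell formation more often fell than rose. Their roles in these cells were not tested, and the list may hold members that act otherwise. Of 28 listed 24 were tested, and 4 rose and 12 fell (median -0.29), beside 19.9% and 27.9% of all tested genes. Ddit3, or CHOP, which pairs with C/EBP proteins and keeps them off DNA, had 106 and 136 at 12 h, against 1108 and 968 at 0 h (-2.95 ± 0.15, 7.72-fold lower, adjusted p = 2.18e-06). Runx1t1, a corepressor, had 48.2 and 37.7 at 12 h, against 238 and 289 at 0 h (-2.25 ± 0.28). Klf7, a zinc finger factor, and Twist1, of the helix-loop-helix class, fell, with differences of -1.71 ± 0.18 and -1.63 ± 0.18. The 4 that rose were the inhibitors of DNA binding Id1, Id2 and Id4 and the repressor Snai1, named after their values were seen. Dlk1, or Pref-1, the membrane protein that marks preadipocytes, had 2166 and 2167 at 12 h, against 2595 and 2389 at 0 h (-0.20 ± 0.17, adjusted p = 0.364).

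Genes of the fat cell's own lipid metabolism were mostly not called. Of 33 listed 27 were tested, and 1 rose and 2 fell (median -0.01). On these 4 arrays 13 of the 30 with a probe set of their own stayed under 50. Adipoq, Cidec, Retn, Cd36, Slc2a4 and Lipe were among them and reached the filter through later hours. Genes at background at both hours could hardly be called, so the count and median say little about them. Scd1, the desaturase that makes oleate, had 2942 and 3186 at 12 h, against 597 and 628 at 0 h (2.29 ± 0.44, adjusted p = 0.00198), but another of its probe sets gave 1.20 with an adjusted p of 0.265. Fasn, fatty acid synthase, had 653 and 715 at 12 h, against 317 and 250.1 at 0 h, and was not called (1.23 ± 0.60, adjusted p = 0.114). Fasn was called higher from the arrays at 0, 12 and 24 h alone (adjusted p = 3.34e-05). The fatty acid carrier gene Fabp4 had 16.2 and 19.6 at 12 h, against 24.4 and 32.2 at 0 h, and 9162 with the empty virus at 192 h. The 2 that fell coat lipid droplets, with Plin2 at 150.4 and 199 and Plin4 at 44.3 and 68.1 at 12 h, against 799.5 and 767 for Plin2 and 149.7 and 166 for Plin4 at 0 h. Adipoq was under 5 on these 4 arrays.

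The genes of the immediate early response, which serum and growth factors switch on within minutes, were mostly lower after 12 h. No array was taken between 0 and 12 h, so an earlier, passing rise could not be seen. Of 29 listed genes 23 were tested, and 5 rose and 13 fell (median -0.70). Egr1, a zinc finger factor, had 306.5 and 285 at 12 h, against 3389 and 3368.5 at 0 h (-3.44 ± 0.19, adjusted p = 2.42e-06), so it was bright in the resting cells and fell 10.9-fold. Ccn1, a matricellular protein once called Cyr61, had 234 and 206 at 12 h, against 1258 and 1349 at 0 h (-2.48 ± 0.33). Egr2 and Klf6 were described above. Fosl1, the AP-1 subunit Fra-1, had 339 and 379 at 12 h, against 32.8 and 50.7 at 0 h (2.72 ± 0.23, adjusted p = 2.1e-05). Fos and Dusp1, a phosphatase of MAP kinases, were picked after their values were seen and went opposite ways, with a difference of -2.06 ± 0.17 for Fos and 2.26 ± 0.15 for Dusp1.

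Contractile and adhesion genes, many of them driven by serum response factor (SRF), mostly fell too. Of 39 listed genes 34 were tested, and 2 rose and 21 fell (median -0.65, against -0.06 over all tested genes). Tpm1, a tropomyosin, had 327 and 284 at 12 h, against 1776.5 and 1615 at 0 h (-2.41 ± 0.22, adjusted p = 2.75e-05). Myl9, a myosin light chain, had 119 and 88.1 at 12 h, against 637 and 647 at 0 h (-2.47 ± 0.36). Fhl2, a LIM-domain partner of SRF, had 77.5 and 79.9 at 12 h, against 388 and 462.5 at 0 h (-2.21 ± 0.19). Srf itself, picked after its value was seen, had 74.1 and 69.6 at 12 h, against 159.5 and 162 at 0 h (-1.01 ± 0.16). Acta2, smooth muscle actin, was not called, with 2691 and 2246 at 12 h, against 3856 and 3780.0 at 0 h (-0.63 ± 0.25, adjusted p = 0.0588). Its call depended on the processing, with adjusted p = 0.0303 for Acta2 after quantile normalization, 0.0288 with an offset of 64 and 0.0457 without the 0 h array of the SETD5 line.

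SRF binds the CArG box, CC and GG around 6 bases that are A or T. It was found, on either strand, in the RefSeq promoters (GRCm38.p6, 250 bases before to 50 after a start site) of 9 of 31 genes of this list that had one (29.0%): Actg1, Cnn2, Myl6, Myl9, Vcl, Srf, Fhl1, Fhl2 and Lima1. The list was drawn up of known SRF targets, so this share is not independent of it. Promoters were matched for 7157 of the 8682 tested genes by symbol. A gene with several start sites was counted once, if any of its promoters held the motif. Among these the box was held by 36 of 1968 genes that fell (1.83%), 19 of 1437 that rose (1.32%) and 111 of all 7157 (1.55%). Fhl2 had 2 start sites and Egr2 had 5, and 1 of each is shown. The stretches below lie upstream of the start site of genes that fell and show the box, in capitals, with 30 bases on either side (Egr2 is of the immediate early list, and Srf has 2 boxes).
Srf, chr17:46556185-46556274, minus strand: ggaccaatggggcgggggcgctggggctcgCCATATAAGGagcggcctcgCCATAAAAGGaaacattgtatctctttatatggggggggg
Myl9, chr2:156775273-156775342, plus strand: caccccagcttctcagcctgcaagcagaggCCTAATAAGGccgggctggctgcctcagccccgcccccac
Fhl2, chr1:43196818-43196887, minus strand: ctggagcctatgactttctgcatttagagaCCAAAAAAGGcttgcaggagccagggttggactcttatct
Egr2, chr10:67537464-67537533, plus strand: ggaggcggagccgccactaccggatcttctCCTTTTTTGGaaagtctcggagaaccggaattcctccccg

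Motifs of other factors were counted in the same promoters. The full cyclic AMP response element TGACGTCA was held by 54 of 1437 genes that rose (3.76%), 52 of 1968 that fell (2.64%) and 264 of 7157 tested (3.69%). The shorter element TGACG, which the full element holds, was held by 42.9% of genes that rose, 32.7% of those that fell and 38.3% of all. The full glucocorticoid response element (AGAACA, 3 bases of any kind, then TGTTCT) was held by 1 tested gene, Sgk1, a kinase and known glucocorticoid target. The E-box CACGTG was held by 13.6% of genes that rose, 13.3% of those that fell and 12.5% of all. The TATA box TATAAA was held by 7.45% of genes that rose, 9.30% of those that fell and 8.38% of all. Both strands were searched, and a match is only a description of the letters. Sgk1 had 768 and 746 at 12 h, against 1322.5 and 1269 at 0 h, a fall (-0.76 ± 0.16, adjusted p = 0.00283), and its element (in capitals) is shown beside the cyclic AMP response element of Dusp1, which rose. Both were chosen for their motif after their values were seen. Sgk1 had 6 start sites, of which 1 is shown.
Sgk1, chr10:21993671-21993745, plus strand: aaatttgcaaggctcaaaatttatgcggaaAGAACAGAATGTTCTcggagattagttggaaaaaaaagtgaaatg
Dusp1, chr17:26508578-26508645, minus strand: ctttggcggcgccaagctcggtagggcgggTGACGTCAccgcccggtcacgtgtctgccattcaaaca

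Basement membrane collagens rose, while thrombospondins and several proteoglycans fell. Col4a1 and Col4a2, the chains of basement membrane collagen, had 4413 and 4895 (Col4a1) and 2879 and 3119 (Col4a2) at 12 h, against 1859.7 and 1632 (Col4a1) and 1255 and 1099 (Col4a2) at 0 h. They rose by 1.41 ± 0.12 and 1.34 ± 0.12. Col1a1, a chain of the main fibrillar collagen, was not called (-0.44 ± 0.18, adjusted p = 0.0665), while it was after quantile normalization (adjusted p = 0.0435) and another of its probe sets gave -0.88 with an adjusted p of 0.00537. Col8a1 fell by 2.46 ± 0.32 and Col11a1 by 1.40 ± 0.23. Of 31 listed genes of collagens and their processing 27 were tested, and 5 rose and 6 fell (median -0.23). These counts stand beside 19.9% higher and 27.9% lower over all tested genes. Thbs2 and Thbs1, thrombospondins that restrain vessel growth, had 59.2 and 42.5 (Thbs2) and 114 and 78.2 (Thbs1) at 12 h, against 830.0 and 721 (Thbs2) and 877 and 1005 (Thbs1) at 0 h. Their differences were -3.57 ± 0.19 and -3.11 ± 0.28. The small proteoglycans Ogn and Lum fell, with differences of -1.61 ± 0.34 and -1.68 ± 0.25. Lum was unequal between the lines at 0 h (115 and 259.8), and was not called without the virus as a block (adjusted p = 0.0707). Of 38 listed genes of the matrix other than collagens 30 were tested, and 3 rose and 16 fell (median -0.47).

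Several proteases that cut matrix fell. Of 23 listed proteases and inhibitors 17 were tested, and 2 rose and 7 fell (median -0.62). Plat, tissue plasminogen activator, had 104 and 68.0 at 12 h, against 849 and 716 at 0 h (-2.98 ± 0.28, adjusted p = 3.35e-05). Mmp3, Mmp11 and Mmp13, metalloproteases of stroma, fell, with differences of -2.23 ± 0.43, -2.13 ± 0.16 and -2.17 ± 0.48. Each of these 3 was under 50 on both 12 h arrays. Mmp13 was not called without the 12 h array of the SETD5 line (adjusted p = 0.0514) or the 0 h array of the empty virus line (adjusted p = 0.0575).

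Genes of entry into S phase rose together. Of 48 listed genes of DNA replication 45 were tested, and 37 rose and 0 fell (limma, 0 at an unadjusted p under 0.05), with a median of 0.96. Of these 45, 44 had a positive difference, and the exception was Dbf4 at -0.02. Cdc6, which loads the replicative helicase, had 288 and 245.5 at 12 h, against 32.2 and 38.3 at 0 h (2.46 ± 0.21, 5.51-fold, adjusted p = 2.1e-05). Rrm2, a subunit of ribonucleotide reductase, had 1873.5 and 2117 at 12 h, against 509 and 578 at 0 h (1.85 ± 0.28). Fen1, the flap nuclease, and Rpa2, a single-strand binding subunit, rose by 1.73 ± 0.14 and 1.55 ± 0.15. Mcm2, a helicase subunit, had 601 and 602 at 12 h, against 250.5 and 341 at 0 h (1.00 ± 0.25, adjusted p = 0.00872), a call lost without either array of the SETD5 line (adjusted p of 0.0531 without its 12 h array and 0.081 without its 0 h array).

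The cyclins and brakes of G1 moved in both directions, and mitosis genes had not risen as a group. Ccne2, cyclin E2, had 609 and 732 at 12 h, against 78.7 and 111.5 at 0 h (2.64 ± 0.17, 6.22-fold, adjusted p = 4.89e-06). Ccnd1, cyclin D1, was not called, with 1712.5 and 2106 at 12 h, against 1285.5 and 1303 at 0 h (0.55 ± 0.23, adjusted p = 0.0772), but was called higher with a common median (0.66, adjusted p = 0.0346). The growth arrest genes Gas2 and Ccng2 fell to 52.4 and 72.1 (Gas2) and 135 and 154 (Ccng2) at 12 h, against 621 and 638 (Gas2) and 791 and 721.5 (Ccng2) at 0 h. Of 36 listed genes of G1 and of growth arrest 33 were tested, and 13 rose and 9 fell (median 0.15), and the median was -0.05 over the members at 100 or more on 3 arrays. Those that fell included the CDK inhibitors Cdkn1b, Cdkn2a, Cdkn2b and Cdkn2c, named after their values were seen. Of 46 listed mitosis genes 45 were tested, and 6 rose and 13 fell (median -0.15), beside 19.9% and 27.9% of all tested genes. Top2a, the DNA topoisomerase, rose by 1.36 ± 0.14, whereas Ccnb2, cyclin B2, had 117 and 140.0 at 12 h, against 287 and 315 at 0 h (-1.14 ± 0.17). Anln and Kif23, which act as the cell divides, fell, with differences of -0.86 ± 0.17 and -0.85 ± 0.11. Cdk1, the mitotic kinase, had 716 and 728 at 12 h, against 522 and 528 at 0 h, and was not called (0.45 ± 0.18, adjusted p = 0.0615), though Cdk1 was called higher with a common median (0.56, adjusted p = 0.0218) and with an offset of 64 (0.42, adjusted p = 0.046).

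**Figure D3:**
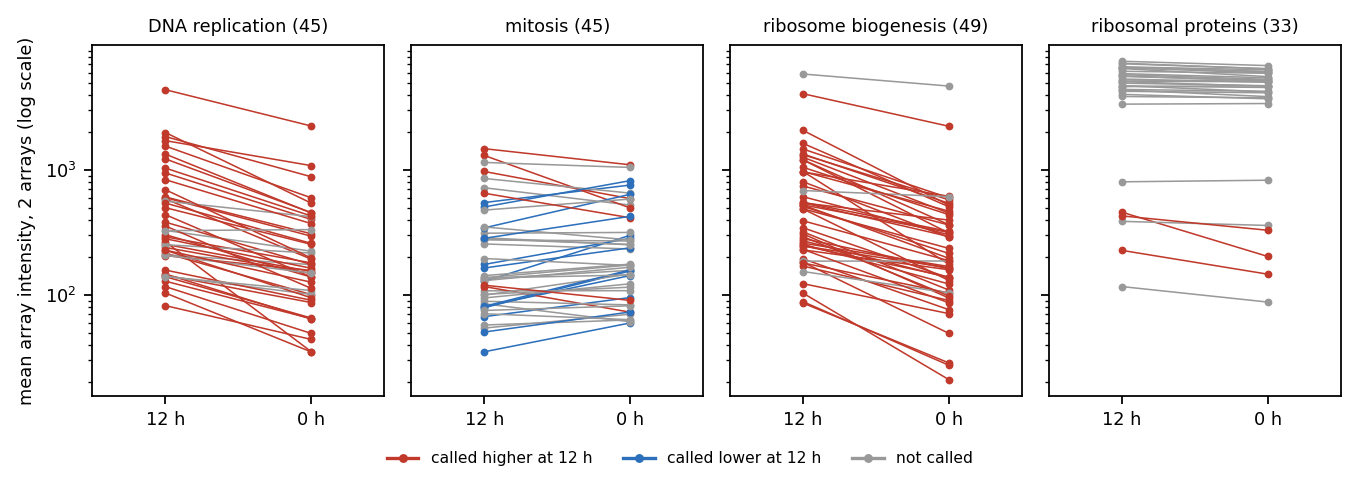
Mean array intensity over the 2 lines (y axis, log scale) of the tested genes of 4 lists at 12 h (left of each panel) and 0 h (right), 1 line per gene, with genes called higher at 12 h in red, called lower in blue and not called in grey. In DNA replication 37 of 45 genes and in ribosome biogenesis 45 of 49 were higher at 12 h, in mitosis 6 of 45 higher and 13 lower, and in ribosomal proteins 3 of 33 higher.

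Ribosome assembly factors rose almost throughout. Of 52 listed genes 49 were tested, and 45 rose and 0 fell (limma, 0 at an unadjusted p under 0.05), with a median of 1.03. Rrp1b, a nucleolar protein of rRNA processing, had 889 and 1058 at 12 h, against 178 and 175 at 0 h (2.36 ± 0.14, 5.13-fold, adjusted p = 2.99e-06). Nop56, of the box C/D particles that modify rRNA, had 1989 and 2163 at 12 h, against 501 and 544 at 0 h (1.96 ± 0.18). Nolc1 and Ddx21, both of the nucleolus, rose by 1.90 ± 0.18 and 1.78 ± 0.17. The 4 not called, named for that, were Npm1, Ubtf, Nob1 and Imp3. The proteins of the ribosome itself gave other values, with 33 of 52 listed genes tested, of which 3 rose (Rpl12, Rpl14 and Rps25) and 0 fell (limma, 0 at an unadjusted p under 0.05), and a median of 0.11. That median was -0.02 in the SETD5 line and 0.24 in the empty virus line. Rps27 had 156 and 78.4 at 12 h, against 111.5 and 64.4 at 0 h, and was not called. Of these 33 genes, 27 had a mean of 3000 or more at both hours, near the top of the scale (the highest intensity on any array was 9698), where 117 of the 8682 tested genes lay at both hours. The part of this in the difference between the lists was not tested. The 3 called members were among the dimmer, and Rpl12 had 487 and 433 at 12 h, against 187 and 219.9 at 0 h. Rps25 was not called without any 1 of the 4 arrays (adjusted p = 0.0916 to 0.227), nor was Rpl14 without the 12 h array of the empty virus line (0.077) or the 0 h array of the SETD5 line (0.0765).

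More genes rose than fell on the lists of glycolysis and nucleotide synthesis, of the endoplasmic reticulum and of the proteasome. Of 37 listed genes of glycolysis and nucleotide synthesis 30 were tested, and 15 rose and 3 fell (median 0.68). The 4 with the largest differences make nucleotides. Ctps, CTP synthase, had 767 and 716 at 12 h, against 240.3 and 249 at 0 h (1.54 ± 0.22), and Prps1, Ppat and Dhodh rose by 1.45 ± 0.25, 1.37 ± 0.12 and 1.36 ± 0.18. Of 26 listed genes of the endoplasmic reticulum 25 were tested, and 14 rose and 3 fell (median 0.49), with Manf and Sdf2l1, stress-induced secretory proteins, up by 1.33 ± 0.16 and 1.28 ± 0.20 and Herpud1, of the degradation machinery, at -1.64 ± 0.20. Crebl2, a leucine zipper protein on the same list, fell by 1.21 ± 0.13. Of 34 listed proteasome genes 33 were tested, and 19 rose and 1 fell (median 0.42). The one that fell was Psme1, an interferon-induced activator subunit (-1.08 ± 0.12), and Psme3, of another activator, and Psmd7 and Psmd13, of the regulatory particle, rose by 0.87 ± 0.20, 0.86 ± 0.17 and 0.81 ± 0.15. Psme3 was not called without the 12 h array of the SETD5 line or the 0 h array of the empty virus line (adjusted p = 0.0528 and 0.0568). Of 47 listed respiratory chain genes 44 were tested, and 4 rose and 0 fell (limma, 1 at an unadjusted p under 0.05, median 0.19). Cycs, cytochrome c, had 4507 and 4457 at 12 h, against 1885 and 1857 at 0 h (1.25 ± 0.31), a call lost without the 12 h array of the SETD5 line or the 0 h array of the empty virus line (adjusted p = 0.087 and 0.0878). Atp5g1, of ATP synthase, rose by 1.10 ± 0.20, while Cyc1 and Uqcrq, of complex III, had differences of 0.70 ± 0.28 and 0.62 ± 0.26 and were not called. Both were called higher with a common median (adjusted p = 0.0397 for Cyc1 and 0.0427 for Uqcrq) and without the 0 h array of the SETD5 line (0.0422 and 0.0443).

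Tested inflammatory and interferon genes were mostly lower, with no member of either list called higher. Of 36 listed chemokines, cytokines and NF-kB genes 18 were tested, and 11 fell and 0 rose (limma, 2 at an unadjusted p under 0.05, median -1.14). Ccl2, the chemokine that draws monocytes, had 28.3 and 25.9 at 12 h, against 331 and 461 at 0 h (-3.24 ± 0.22, 9.44-fold lower, adjusted p = 6.39e-06). Ccl7 and Ccl9 fell, with differences of -2.42 ± 0.21 and -2.27 ± 0.17, and Nfkbie, an inhibitor of NF-kB, by 1.83 ± 0.23. Of 37 listed genes of the interferon response and antigen presentation 17 were tested, and 12 fell and 0 rose (limma, 0 at an unadjusted p under 0.05, median -1.45). Xaf1, an interferon-induced apoptosis factor, had 8.0 and 16.9 at 12 h, against 219 and 348 at 0 h (-3.38 ± 0.24). Gbp2, an interferon-induced GTPase, had 3.3 and 4.5 at 12 h, against 188 and 175 at 0 h. Ifit3, an antiviral protein, had 11.8 and 1.5 at 12 h, against 157 and 226 at 0 h, and Usp18, which removes the tag ISG15, fell by 2.12 ± 0.37. Since these genes were at the bottom of the scale at 12 h, their sizes depend on the offset, with -4.56 at an offset of 4 and -1.85 at 64 for Gbp2. Xaf1, Gbp2 and Ifit3 were under 50 on both 12 h arrays and passed the filter through other hours, where they were higher. Of members with a probe set of their own, 14 of 34 on the chemokine list and 13 of 33 on the interferon list were under 50 on all 4 arrays. The counts and medians thus cover only members that were bright at some hour. The summed intensity of the 15 macrophage markers was 134 and 165 at 12 h, against 216 and 220 at 0 h, with Ptprc, Adgre1, C1qa, C1qb and C1qc at 9.9 or less on each of the 4 arrays. The part of this in the fall was not tested.

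Acute phase genes included some that rose above very low levels at 0 h. Of 25 listed 14 were tested, and 7 rose and 3 fell (median 0.57). Besides Lcn2, Osmr, the receptor of oncostatin M, had 1877 and 1940.0 at 12 h, against 536 and 576 at 0 h (1.75 ± 0.18). Orm1 and Lbp, plasma proteins of the acute phase, had 30.1 and 35.8 (Orm1) and 48.6 and 25.3 (Lbp) at 12 h, against 0.5 and 0.9 (Orm1) and 12.0 and 1.4 (Lbp) at 0 h. Both were under 50 on all 4 arrays, and with an offset of 64 neither was called (adjusted p = 0.408 for Orm1 and 0.14 for Lbp). Without the virus as a block neither was called either (adjusted p = 0.11 for Orm1 and 0.15 for Lbp). Orm1 was also not called without any 1 of the 4 arrays (adjusted p = 0.0599 to 0.28).

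Genes of stress defence moved in both directions. Of 30 listed genes for metallothioneins and antioxidant proteins 25 were tested, and 11 rose and 6 fell (median 0.10). Gclc, the rate-limiting subunit of glutathione synthesis, had 800 and 744 at 12 h, against 89.7 and 91.5 at 0 h (2.89 ± 0.25, adjusted p = 2.1e-05). Hmox1, heme oxygenase, had 28.3 and 36.0 at 12 h, against 259 and 215 at 0 h (-2.39 ± 0.19), and the glutathione transferases Gstt1 and Gstm1 fell, with differences of -2.21 ± 0.15 and -1.77 ± 0.26. Of 37 listed genes of amino acid supply and targets of ATF4, the factor of amino acid shortage, 33 were tested, and 1 rose and 13 fell (median -0.20). Chac1, which degrades glutathione, had 47.6 and 70.3 at 12 h, against 345 and 324 at 0 h (-2.24 ± 0.15), and the amino acid carrier Slc1a4 fell by 1.34 ± 0.21. Ddit3 and Trib3, above, also belong to this list. Of 29 listed genes of cholesterol synthesis and uptake 22 were tested, and 3 rose and 2 fell (median -0.47). Insig1 and Fdft1 had differences of -1.37 ± 0.57 and -1.17 ± 0.53 that were not called (adjusted p = 0.0698 and 0.0945). Both were called lower from the arrays at 0, 12 and 24 h alone (adjusted p = 6.58e-05 and 2.02e-05). Abca1, the cholesterol exporter, and Pmvk, an enzyme of the pathway, rose by 1.39 ± 0.46 and 1.69 ± 0.52 (adjusted p = 0.0287 and 0.0217). The call of Abca1 was lost without either 12 h array or the 0 h array of the empty virus line (adjusted p = 0.0805 to 0.263), and that of Pmvk without the 12 h array of the SETD5 line (0.14) or the 0 h array of the empty virus line (0.162).

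Growth factor receptors and ligands were more often lower. Of 42 listed 26 were tested, and 4 rose and 13 fell (median -0.22), beside 19.9% and 27.9% of all tested genes. Pdgfrb, a receptor of platelet-derived growth factor that fibroblasts carry, had 254 and 205 at 12 h, against 1656 and 1836 at 0 h (-2.85 ± 0.14, 7.20-fold lower, adjusted p = 2.01e-06). Vegfd, a ligand of lymph vessels, had 77.8 and 93.0 at 12 h, against 647 and 653 at 0 h (-2.72 ± 0.26). Egfr and Nrg1, receptor and ligand of one family, fell, with differences of -1.23 ± 0.16 and -1.17 ± 0.22. Of 40 listed Wnt genes 17 were tested, and 3 rose and 7 fell (median -0.40). Wnt4, a secreted signal, had 1060 and 998 at 12 h, against 125 and 114 at 0 h (2.95 ± 0.20), while Sfrp2, which binds Wnt proteins, and the receptors Fzd2 and Fzd5 fell, with differences of -1.49 ± 0.19, -1.38 ± 0.19 and -1.19 ± 0.18. Of 46 listed genes of the TGF-β and BMP pathway 32 were tested, and 4 rose and 11 fell (median -0.11), beside the same shares. Its ligand Tgfb3, its repressor Tgif1 and its target Tgfbi fell, with differences of -1.35 ± 0.21, -1.43 ± 0.23 and -1.30 ± 0.28, and the receptor Acvr1b rose by 1.37 ± 0.18.

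Genes of the circadian clock moved in both directions. Of 21 listed 15 were tested, and 5 rose and 7 fell (median 0.01). Per2, like Per1 a repressor of the loop, had 102 and 92.8 at 12 h, against 15.6 and 20.1 at 0 h (1.75 ± 0.16). Dbp, an output factor, had 43.8 and 41.0 at 12 h, against 316 and 324 at 0 h (-2.52 ± 0.17), and Nr1d2, a REV-ERB repressor, had 86.2 and 103 at 12 h, against 529 and 560.3 at 0 h (-2.35 ± 0.13). No array was taken between 0 and 12 h, and the hour of day was not known. Of 23 listed STAT, JAK and SOCS genes, of cytokine signalling, 19 were tested, and 6 rose and 5 fell (median 0.10), with Socs5, a suppressor, at -1.28 ± 0.16 and Tyk2, a kinase, at -0.71 ± 0.13. Socs2 rose by 0.61 ± 0.22 (adjusted p = 0.0431), a call lost without any 1 of the 4 arrays (adjusted p = 0.0746 to 0.226), and so was that of Cish, which fell by 0.55 ± 0.18 (adjusted p = 0.0857 to 0.135). Quantile normalization also ended both calls (adjusted p = 0.0752 for Socs2 and 0.0954 for Cish), and leaving out the virus as a block ended that of Socs2 (0.0625).

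**Figure D4:**
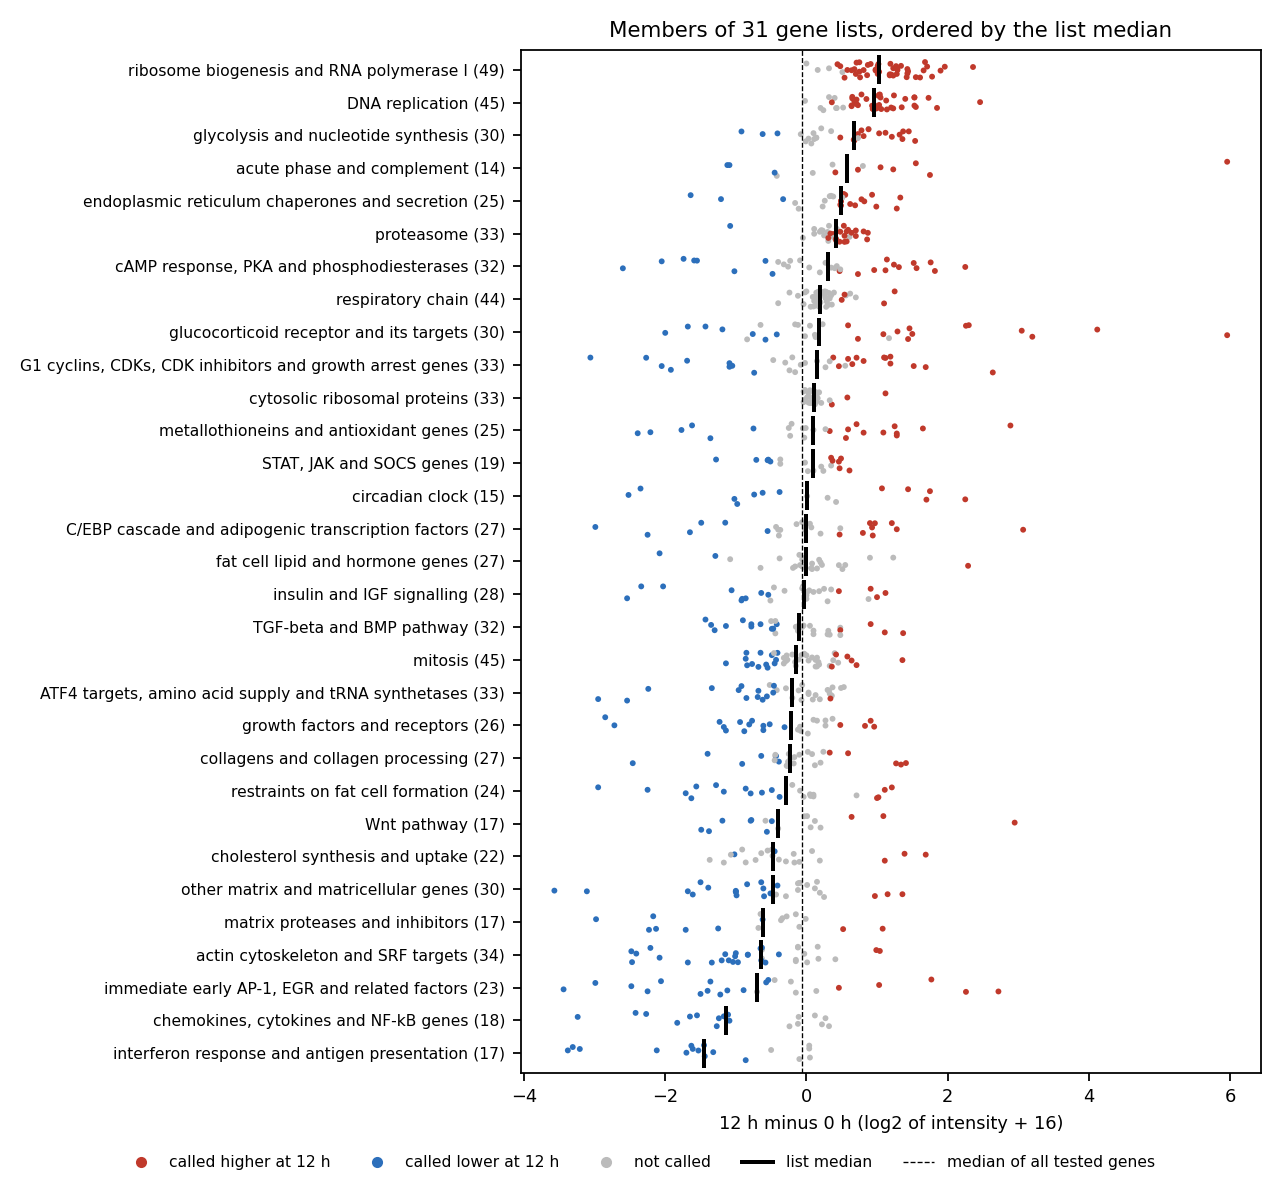
Difference between 12 h and 0 h (x axis, log2 of intensity plus 16) of the tested members of 31 gene lists, 1 row per list with the number tested and 1 point per gene, called higher in red, called lower in blue and not called in grey, ordered by the list median (black bar). Medians run between 1.03 for ribosome biogenesis and -1.45 for the interferon response, beside -0.06 for all tested genes (dashed).

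The lines differed in size for a few called genes, with no test since each line had 1 array an hour. The 4 with the largest gap were A330076H08Rik, Uxs1, Gemin5 and Ifit3. Uxs1, which makes UDP-xylose for proteoglycans, had 431 and 746 at 12 h, against 342.5 and 193 at 0 h, a difference of 0.32 in the SETD5 line and 1.87 in the empty virus line. A330076H08Rik had 33.4 and 9.9 at 12 h, against 50.4 and 167 at 0 h (-0.43 in the SETD5 line and -2.82 in the empty virus line). Gemin5, which loads splicing particles, had 149 and 102 at 12 h, against 24.6 and 58.6 at 0 h. In both Uxs1 and A330076H08Rik the lines were far apart already at 0 h, and their calls were lost without the 0 h array of the empty virus line (adjusted p = 0.329 for Uxs1 and 0.38 for A330076H08Rik) or without its 12 h array (0.266 and 0.182). That of A330076H08Rik was also lost without the 12 h array of the SETD5 line (adjusted p = 0.0682).

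The 12 h levels were passing ones for several genes, while that of Ccl2 changed little up to 48 h. Ccne2 was at its highest of the 7 hours at 12 h in both lines and stood at 238 and 307 at 24 h. Rrp1b was likewise highest at 12 h, with 490.3 and 525 at 24 h. Ccnb2, low at 12 h, had 1255.5 and 1301 at 24 h. Fkbp5 went on to 2537 and 3019.9 at 48 h and was back at 274 and 169.6 at 192 h, long after the mixture had been taken off. Lcn2 had 1950.1 and 2357 at 24 h and 10.1 and 13.1 at 192 h. Ccl2 stayed between 25.9 and 43.3 over 12 to 48 h, the span of the mixture, and its later hours are not described here. Irs1 and Pdgfrb climbed again after 24 h, to 1311 and 1564 for Irs1 and 1553 and 1394 for Pdgfrb at 192 h.

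**Figure D5:**
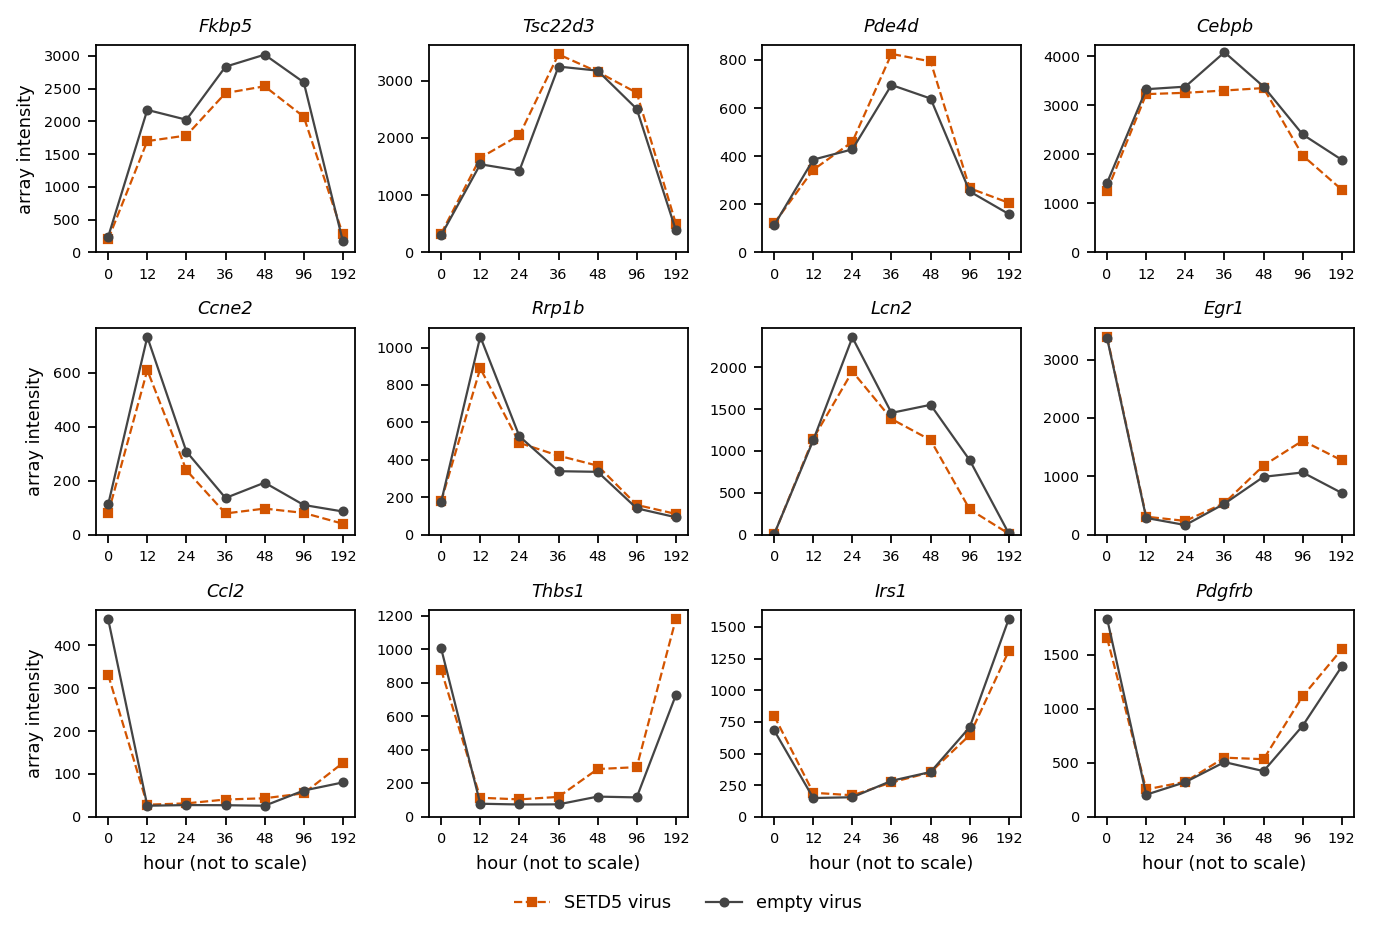
Intensity on the array (y axis, starting at 0) for 12 genes at 0, 12, 24, 36, 48, 96 and 192 h of differentiation (x axis, not to scale), 1 array per point, in orange squares with dashed lines for the SETD5 virus and in grey circles with solid lines for the empty virus. Ccne2 and Rrp1b peak at 12 h, and Ccl2 is at 25.9 to 28.3 at 12 h.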

How the data were processed

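RNA of 3T3-L1 cells was hybridised to Affymetrix Mouse Genome 430 2.0 arrays, 1 array for each line and hour. The authors made the deposited intensity values with GeneChip Analysis Suite, as an average difference for each probe set. In the values as deposited, the trimmed mean is 100 on each array. The sources used here do not give the scaling target, filters or detection calls. The number of arrays limits the precision. Of 45100 probe sets (64 of them controls), 34944 had 1 gene symbol in the platform annotation, 932 had several and 9160 had none.

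Each gene was taken from its probe set with the highest mean over the 14 arrays. Genes at 50 or more on 3 arrays were fitted with limma 3.58.1 in R 4.3.3 on log2(intensity + 16), with hour and virus as terms over all 14 arrays (6 residual degrees of freedom), and the 12 h minus 0 h contrast was adjusted by Benjamini-Hochberg over 8682 genes. The fit was tested on simulated data. The labels pair arrays by virus, and the virus is in the model as a block. Named genes were the 12 largest rises and falls with a mean of 100 or more at either hour, the 4 largest differences of each of 31 gene lists, 25 genes chosen by name, and the 4 called genes with the largest gap between lines. Members, lists and tests were chosen with earlier results of these data known. Lists are described by counts and medians, with no test of their own. Alternatives changed the scaling, offset, filter, probe set, block, variance prior and arrays. Promoters came from RefSeq (GRCm38.p6).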

Additional observations from a re-analysis of the deposited data

Results flagged for a closer look

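The lines moved opposite ways for 3 named genes, none of them called. Cebpa had a difference between 12 h and 0 h of 0.05 in the SETD5 line and -0.91 in the empty virus line, a gap (SETD5 line minus empty virus line) of 0.96, with all 4 arrays under 50. Klf9 had -0.08 in the SETD5 line and 0.17 in the empty virus line, a gap of -0.24. Pparg had -0.07 in the SETD5 line and 0.21 in the empty virus line, a gap of -0.28. With 1 array for each line and hour these gaps were not tested, and 95% of all 8682 genes had a gap between the lines of at most 0.51 in size.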

How the results depend on the processing

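With 1 array for each line and hour, the spread was estimated mostly from the model over all 7 hours, and hormones, fresh medium and time cannot be told apart. Of 155 named genes, 139 were called, and 123 of these under every alternative fit in which they were tested. Another probe set, not counted among these fits, was tested for 62 named genes. With it 2 calls were lost (Scd1 and Socs2) and 1 was gained (Col1a1). Testing every probe set gave 2768 higher and 3582 lower of 14412. Leaving out 1 of the 4 arrays gave 1070 to 1257 genes higher (1106 without the 12 h array of the SETD5 line, 1070 without the 0 h array of the empty virus line) and 1557 to 1868 lower (1557 and 1578 without these). The other settings gave counts within 1.5 times the main ones, including 2417 higher and 3197 lower from the 4 arrays alone (1 residual degree of freedom) and 1544 higher and 2137 lower without the virus as a block. Named genes not called in the fit reported were called in others, 13 with the 4 arrays alone, 10 with the 0, 12 and 24 h arrays alone, 4 with a common median, 3 after quantile normalization and 2 with an offset of 64. Differences of 4 uncalled genes changed sign when 1 array was left out, with ranges of -1.32 to 0.45 for Cebpa, -0.84 to 0.08 for Fabp4, -0.04 to 0.13 for Klf9 and -0.50 to 0.64 for Pparg, and that of Klf9 was -0.08 after quantile normalization. The cause was not tested. Of 31 lists, 5 had a median that changed sign under some alternative (insulin and IGF signalling, adipogenic factors, G1 and growth arrest, fat cell genes and the clock). Genes under 50 at one hour depend on the offset in size.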
